A study of Chlamydomonas reinhardtii with 9 samples.

Results

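The PAF1-HA domains described here are stretches of the Chlamydomonas reinhardtii nuclear genome in which peaks of tagged PAF1 recur at close intervals. They were chosen from the PAF1-HA peak lists alone. Peaks of the 3 PAF1-HA libraries on the 17 chromosomes were merged where they shared at least 1 bp. A merged interval counted as a consensus region when 2 or all 3 libraries had contributed to it. Consensus regions at most 1000 bp apart were stitched, and a stitched stretch of 3 or more regions was a domain. This gave 815 domains, which held 2987 of 12979 consensus regions, or 23.0%. The number rested on having 3 libraries: with any 1 of them left out and a peak required in both others, there were 251 to 289 domains. Another 1557 stretches had 2 regions and 6878 regions stood alone, so the domains were 815 of 9250 stitched units. Number, length, spacing and recurrence of the domains in these libraries follow from the rule and are given as a description, without a test.

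The series set side by side anti-HA chromatin immunoprecipitations from a line expressing tagged PAF1 (CrPAF1-HA), a line expressing tagged SKIP (CrSKIP-HA) and the wild type (CrWT), with 3 libraries each. All carry the strain or line name CC5325 in the labels. The tagged lines have the genotype or cell type entry paf1 or skip and the wild type has WT, and the entries leave unsaid whether the tagged lines also carry a mutation in the gene. Cells had been cross-linked with formaldehyde, and no treatment or time is given. Untagged cells were not analysed here, and no background value of theirs stands beside those of the tagged lines. Whether the replicates are separate cultures is not given, and the p-values below measure only the spread between libraries, which may be technical.

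PAF1 is a subunit of the PAF1 complex, which in yeast and animals travels with RNA polymerase II along transcribed genes and promotes histone modifications that accompany elongation. SKIP is an SNW-domain protein of the spliceosome that in Arabidopsis has also been described in association with the PAF1 complex. The complex is also known for a part in the processing of transcript ends. Which genes the domains touch was not analysed here, because no annotation or sequence of the build behind the peak coordinates was used.

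Each library's list gives the start and end of its peaks, nearly all exactly 400 bp wide, with no score, so the read depth is unknown and a missing peak is a missing call. The PAF1-HA lists held 16252, 16928 and 17564 peaks on the chromosomes and the SKIP-HA lists 19631, 22225 and 24615. The labels of replicate 3 of each line use other field names, and the submitters' processing notes name MACS3 for replicates 1 and 2 of these lines only, so replicate 3 was regarded as possibly another batch. Coordinates are given 1-based in the files' own build, which is not named in the sources used here, with an uncertainty of 1 bp in the starts.

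Most domains were short. Domains of 3 regions numbered 493, or 60.5%, and 188 had 4 regions, 84 had 5, 29 had 6, 9 had 7, 9 had 8 and 3 had 9. The median length was 3065 bp, with quartiles of 2458 and 4006 bp and a range of 1338 to 9794 bp, and 83 domains were longer than 5000 bp. Length grew with the number of regions, from a median of 2584 bp for 3 regions to 4771.5 bp for 5 and 9370 bp for 9. Together the domains spanned 2749 kb, or 2.46% of the 112 Mb between the chromosome starts and the last peaks. A median of 70.6% of a domain lay inside its regions and the rest in the gaps between them.

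**Figure D1:**
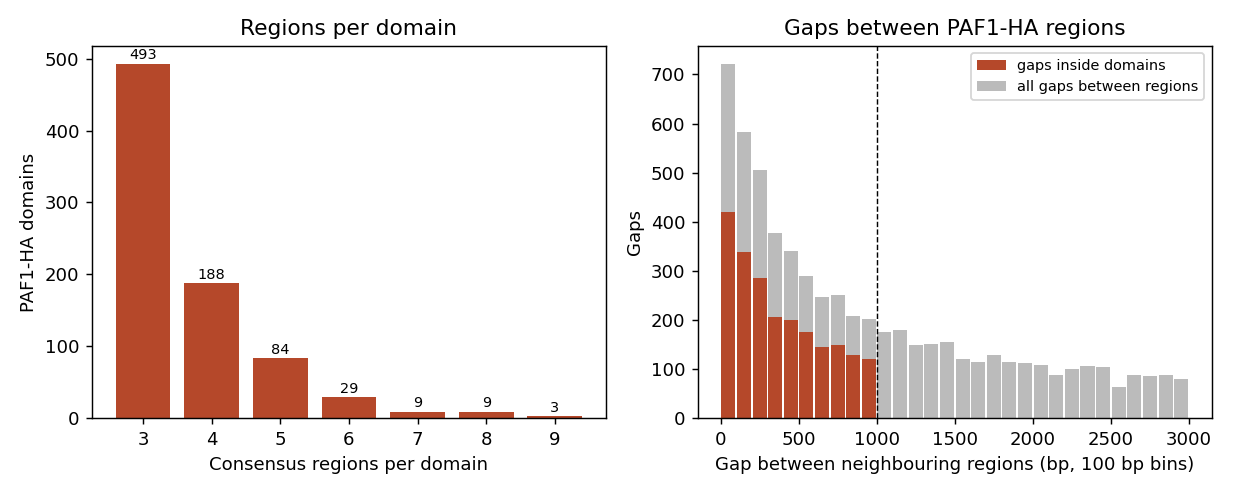
Left: number of PAF1-HA domains (bars) by consensus regions per domain. Right: gaps between neighbouring PAF1-HA consensus regions in 100 bp bins, all gaps in grey and those inside domains in red; the dashed line is the stitching distance of 1000 bp, and the counts decline across it without a step.

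Regions inside the domains were of similar width to single regions and were unevenly spaced. Their median width was 557 bp, against 581 bp for single regions. The 2172 gaps inside domains had a median of 320.5 bp and quartiles of 133 and 600 bp, and neighbouring region centres lay a median of 958 bp apart, with quartiles of 742 and 1278 bp. Short gaps were the most frequent kind, with 420 under 100 bp and 120 between 900 and 999 bp. In 276 gaps, or 12.7%, a peak region of a single PAF1-HA library lay inside the gap. Peaks were nearly all 400 bp wide, so only gaps of about that length or more could hold one. With a median of 320.5 bp, most gaps could not. Among the 322 domains of 4 or more regions, the coefficient of variation of the centre spacing had a median of 28.7% and a range of 1.04% to 59.6%, and it was under 15% in 48 of them.

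The limit of 1000 bp did not fall at a break in the spacing. Over all consensus regions, 203 gaps were 900 to 999 bp long and 175 were 1000 to 1099 bp long. Just inside the rule were 49 domains of 3 regions whose largest gap was over 900 and up to 1000 bp, in which 40.1% of regions had a peak in 3 of 3 PAF1-HA libraries and 33.8% ± 1.77 of the region length was covered by SKIP-HA peaks (SD, n = 3 libraries). Just outside it were 83 stretches of 2 regions with a further region more than 1000 and up to 1100 bp away, with 39.2% of regions and 34.5% ± 4.10 of the length.

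The 10 longest domains show how such a stretch is built. The longest lay on chromosome 3 at 72641 to 82434, with 9 regions separated by gaps of 51 to 765 bp. The PAF1-HA libraries had 8 peaks each in it, but only 2 of its 9 regions, the first and the second, had a peak in all 3 libraries. SKIP-HA peaks covered 24.5%, 31.9% and 40.1% of it in replicates 1, 2 and 3. The start of this domain was the part most alike between the proteins. SKIP-HA peaks covered between 94.0% and 96.2% of its first region in the 3 libraries, while its sixth region had a SKIP-HA peak in replicate 2 only, over 22.8% of its width.

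The domain on chromosome 13 at 3489814 to 3498688, of 8875 bp, was the most recurrent of the 10 longest. The PAF1-HA libraries had 11 peaks each there, 6 of its 8 regions had a peak in each library, and 81.3% of its length lay inside regions. SKIP-HA peaks covered 35.7%, 41.2% and 36.2% of it. On chromosome 4 at 3281377 to 3290210, of 8834 bp with 9 regions, the PAF1-HA libraries had 7, 7 and 10 peaks, and SKIP-HA covered 22.6%, 18.1% and 21.6%. There 3 of 9 regions were met by SKIP-HA peaks in at least 2 libraries, where an overlap of 1 bp was enough. They included the first and the last region, but the last only through a slight overlap in 1 library. SKIP-HA covered 0%, 39.6% and 1.99% of that region in replicates 1, 2 and 3.

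**Figure D2:**
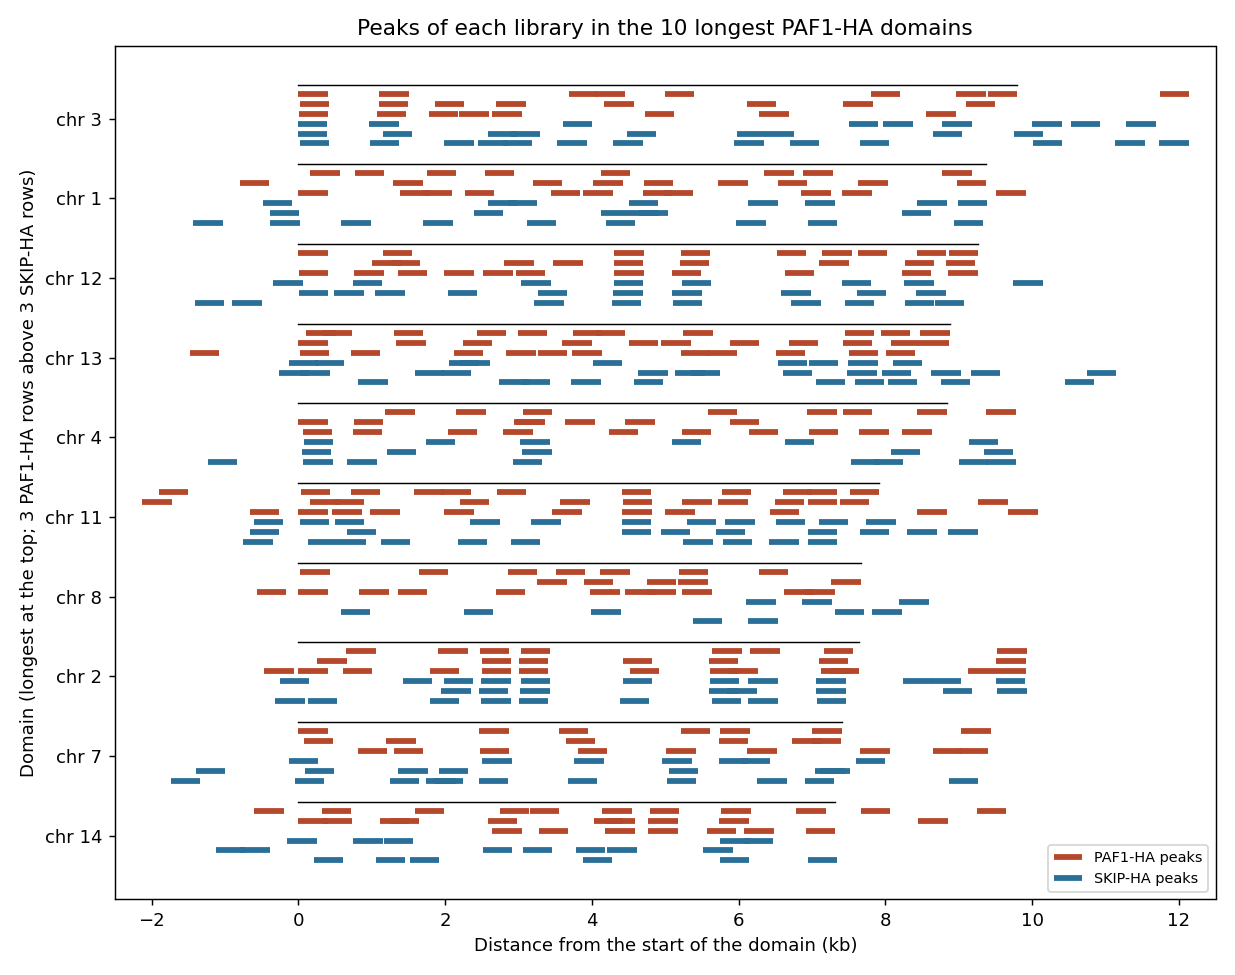
Peaks in and around the 10 longest PAF1-HA domains, aligned at the domain start (x axis, kb); each domain has 3 rows of PAF1-HA peaks (red, replicates 1 to 3 from the top) above 3 rows of SKIP-HA peaks (blue, in the same order), and the black line spans the domain. Columns of aligned peaks in all 6 rows, as in the chromosome 2 domain, alternate with positions held by a few libraries.

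The domain on chromosome 8 at 3941900 to 3949560 was the most regular of these 10, with 6 regions whose centres lay 1351 bp apart on average and a coefficient of variation of 12.0%. SKIP-HA covered 10.4%, 20.3% and 10.4% of it, the lowest mean among the 10 longest. Only its last region was met by SKIP-HA peaks in at least 2 libraries, and its first 3 regions were met by none. The chromosome 2 domain at 788471 to 796110 showed the opposite layout. All 7 of its regions were met by SKIP-HA in at least 2 libraries, and SKIP-HA covered 43.8%, 29.4% and 43.0% of it.

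The remaining domains among the 10 longest differed in the same respect. On chromosome 12 at 9156246 to 9165510 all 8 regions were met by SKIP-HA in at least 2 libraries, and SKIP-HA covered 26.5%, 43.2% and 30.2% of the domain. On chromosome 7 at 3679952 to 3687354 all 7 regions were met, with a coverage of 29.4%, 26.4% and 43.9%. On chromosome 11 at 1027405 to 1035317, 7 of 8 regions were met, with 47.7%, 28.5% and 45.4%. In each of these 3 domains all regions or all but 1 were met, while SKIP-HA peaks covered less than 50% of the length in every library. On chromosome 1 at 3346118 to 3355487, 7 of 9 regions were met, with 28.4%, 18.5% and 30.1%. The 7 include its first region, of which SKIP-HA covered only 0%, 2.14% and 3.21% in replicates 1, 2 and 3. On chromosome 14 at 3203949 to 3211265, 4 of 8 regions were met, with 24.1%, 27.3% and 32.4%.

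Every PAF1-HA library contributed to the domains in nearly equal measure. A peak of replicate 1 was found in 81.2% of the 2987 domain regions, of replicate 2 in 80.5% and of replicate 3 in 82.0%, where the rule alone requires 2 libraries of 3. The libraries had 2914, 2877 and 2979 peak centres inside domains. A peak in 3 of 3 libraries was found in 43.6% of domain regions and 37.8% of single regions. Replicates 1 and 2 alone supported 539 domain regions, replicates 1 and 3 alone 583 and replicates 2 and 3 alone 562, so the pairs contributed in similar numbers.

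Recurrence of a whole domain asks more than that of its regions, since every region must have a peak in 3 libraries. A lower share of such domains follows from this alone. In 86 domains every region had a peak in 3 libraries, in 157 no region had, and 572 were mixed. In 802 of the 815 domains the regions held peaks of all 3 libraries. Stitching each library's own peaks by the same distance gave 1026, 1102 and 1182 stretches of 3 or more regions, and 66.4%, 64.5% and 68.6% of the 815 domains overlapped such a stretch in replicates 1, 2 and 3. Terminal regions, the first and the last of a domain, had a peak in 3 libraries in 43.0% of cases and inner regions in 44.4%.

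Of the domains recurrent in every region, the largest number of regions was 6, on chromosome 8 at 1017812 to 1021417. It packed 6, 6 and 7 PAF1-HA peaks into 3606 bp, with gaps of 7 to 458 bp. SKIP-HA covered 44.4%, 44.4% and 33.3% of it, and its first region had a SKIP-HA peak in 0 of 3 libraries. Domains of 5 such regions were found on 3 chromosomes. The one on chromosome 11, at 1233244 to 1240090, had a SKIP-HA coverage of 37.9% ± 6.76 (SD, n = 3 libraries). On chromosome 12, at 9395672 to 9400453, the coverage was 30.7% ± 4.83, and on chromosome 15, at 5264400 to 5268616, it was 47.3% ± 9.49 (SD, n = 3 libraries). A domain of 4 such regions on chromosome 2 at 7104812 to 7109994 had a coverage of 24.3% ± 14.1 (SD, n = 3 libraries). In each of these 5 domains, some regions lacked a SKIP-HA peak in at least 1 library.

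Recurrence was also measured in a library that had no part in choosing the domains. Domains were built from 2 PAF1-HA libraries with a peak in both, and the third library was then laid over them. Regions in such domains were found again more often than single regions in all 3 rounds. With replicate 1 held out, its peaks met 74.2% of 863 domain regions and 62.7% of 5127 single regions. With replicate 2 held out the shares were 73.2% of 974 and 63.5% of 5015, and with replicate 3 held out 76.7% of 855 and 63.9% of 5041. Regions of 2-region stretches lay between them, at 70.3%, 72.9% and 71.1%. The difference between domain and single regions averaged 11.3 percentage points ± 1.56 (SD, n = 3 rounds). The rounds share libraries and were therefore given no p-value. The held-out peaks covered 48.4% to 53.1% of the domain regions, against 14.8% to 16.9% of the gaps between them and 12.0% to 13.2% of the 1000 bp on each side of a domain. They covered 38.5% to 39.3% of single regions and 10.1% to 10.9% of the 1000 bp on each side of those. Held-out peaks were thus denser beside domains than beside single regions in all 3 rounds. Inner regions were met in 78.0%, 76.0% and 78.8% and terminal regions in 71.5%, 71.3% and 75.3%, so the ends of a domain recurred less often than its interior in each round.

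SKIP-HA peaks, which the rule did not use, reached nearly every domain. At least 1 SKIP-HA peak overlapped 805 domains; 686 domains, or 84.2%, were overlapped in all 3 SKIP-HA libraries, and 781, or 95.8%, in at least 2. Over all 9250 stitched units the share in at least 2 libraries was 72.4%, but a longer stretch is met more often by its length alone. Counted by region, 63.9% of the 2987 domain regions were overlapped in at least 2 SKIP-HA libraries. Over all 12979 consensus regions the share was 65.5%, so the share in domain regions was close to that background. In SKIP-HA replicates 1, 2 and 3 there were 2.43, 2.61 and 2.67 peak centres per domain.

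SKIP-HA coverage of a domain region was near that of a single region. In SKIP-HA replicates 1, 2 and 3, peaks covered 34.3%, 36.1% and 37.3% of the length of domain regions, and 35.0%, 36.0% and 38.4% of the length of single regions. The sign of the difference was not the same in the 3 libraries. Its mean was -0.56 percentage points ± 0.563 (SD, n = 3), with a two-sided exact sign-flip permutation p of 0.5; the smallest p that 3 libraries allow is 0.25. For regions of 2-region stretches the mean coverage was 38.2% ± 1.21, higher than in domain regions in 3 of 3 libraries (mean difference -2.26 ± 0.811, SD, n = 3, exact sign-flip p = 0.25).

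**Figure D3:**
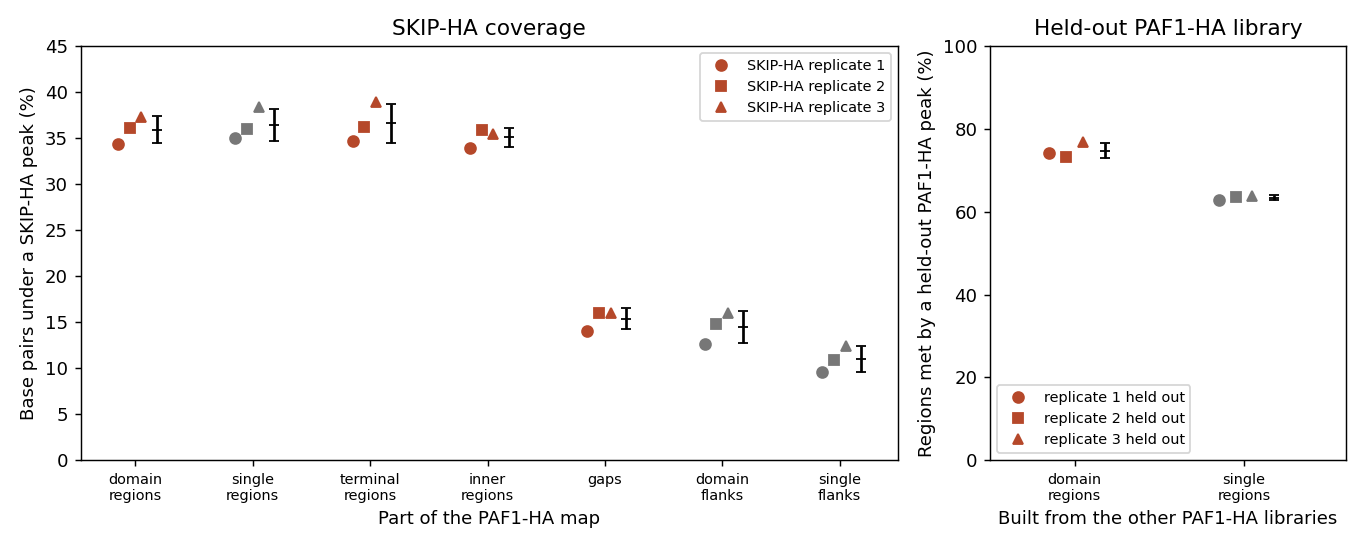
Left: share of base pairs under a SKIP-HA peak in parts of the PAF1-HA map, 1 symbol for each SKIP-HA library. Right: share of regions met by a peak of the PAF1-HA library that was held out when the domains were built. Black marks are means ± SD over 3 values; domain regions and single regions lie together on the left and apart on the right.

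At a fixed level of PAF1-HA recurrence the coverage of domain and single regions parted in either direction. Among regions with a peak in 3 PAF1-HA libraries, SKIP-HA covered 43.8% ± 1.16 in domains and 42.0% ± 1.06 in single regions, higher in domains in 3 of 3 SKIP-HA libraries (difference 1.85 ± 0.131 points, exact sign-flip p = 0.25, the smallest possible). Among regions with a peak in 2 PAF1-HA libraries, it covered 28.6% ± 1.80 in domains and 32.4% ± 2.29 in single regions, lower in domains in 3 of 3 libraries (difference -3.84 ± 0.900 points, exact sign-flip p = 0.25; SD, n = 3).

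Domains sorted by how fully they recurred spread widely in SKIP-HA coverage. In the 86 domains with every region in 3 PAF1-HA libraries, SKIP-HA peaks covered 54.3%, 57.5% and 56.9% of the region length in replicates 1, 2 and 3. In the 157 domains with no region in 3 PAF1-HA libraries, the coverage was 26.0%, 25.6% and 28.3%. The library values of these classes, each pooled over domains, did not overlap, and the mean difference was 29.6 points ± 1.99 (SD, n = 3, exact sign-flip p = 0.25). The 572 mixed domains lay between them at 33.8%, 35.8% and 37.0%. Over all consensus regions the coverage was 36.7% ± 1.47 (SD, n = 3). Single domains of the classes did overlap. Mean coverage of the whole length was 8.30% in a domain with every region in 3 libraries and 48.9% in a domain with none.

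The stricter rule moved the comparison with single regions. When a peak in 3 of 3 PAF1-HA libraries was required of each region before stitching, 141 domains with 463 regions were left. SKIP-HA then covered 51.2%, 52.8% and 51.0% of the domain regions and 39.6%, 40.9% and 42.0% of the 3673 single regions, a difference of 10.8 points ± 1.58 (SD, n = 3, exact sign-flip p = 0.25). With any 1 PAF1-HA library left out and a peak required in both others, the difference was 6.25 to 10.3 points, and with replicates 1 and 2 of both lines only it was 11.4 points. The direction of this comparison therefore changed with the recurrence asked of the PAF1-HA regions. It also changed at the original recurrence, to 0.56 points with stitching at 500 bp and 3.27 points with merging at 200 bp overlap. What set the direction was not tested.

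Along a domain, SKIP-HA peaks followed the PAF1-HA regions and were sparse in the gaps. Coverage in domain regions was 34.3%, 36.1% and 37.3% in SKIP-HA replicates 1, 2 and 3, and coverage in the gaps of the same domains was 14.1%, 16.0% and 16.0%. The difference was 20.5 points ± 0.680 (SD, n = 3, exact sign-flip p = 0.25). It was 31.1, 31.9 and 37.2 points without PAF1-HA replicate 1, 2 or 3, with a peak then required in both others, and 37.2 points with replicates 1 and 2 of both lines only. Of the SKIP-HA peak centres inside domains, 13.5%, 14.2% and 14.0% lay in gaps, which make up 30.2% of the domain length. Terminal regions held 47.5%, 46.9% and 48.8% of the centres on 38.1% of the length, and inner regions held 39.0%, 38.9% and 37.2% on 31.8%.

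The gaps were covered by SKIP-HA about as much as the sequence just outside the domains. Gap coverage averaged 15.4% ± 1.12, and coverage within 1000 bp outside the domain ends averaged 14.5% ± 1.69 (SD, n = 3). The gap value was higher in 3 of 3 libraries, by 0.055 to 1.44 points. Within 1000 bp of single regions the coverage was 9.58%, 10.9% and 12.4% in replicates 1, 2 and 3, lower than in the domain flanks in 3 of 3 libraries (mean difference 3.53 ± 0.444 points, SD, n = 3, exact sign-flip p = 0.25). Farther out, beyond 1000 and up to 5000 bp, SKIP-HA covered 12.2% ± 1.40 beside domains and 8.65% ± 0.962 beside single regions, and 6.86%, 7.75% and 8.56% of all chromosomal sequence in replicates 1, 2 and 3. Whole domains exceeded their flanks by 15.2 points ± 0.334 (SD, n = 3, exact sign-flip p = 0.25), by 24.1 points without PAF1-HA replicate 3 and by 25.2 points with replicates 1 and 2 of both lines only. The rule itself leaves no consensus region within 1000 bp of a domain, so this contrast again sets PAF1-HA regions against sequence without them.

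**Figure D4:**
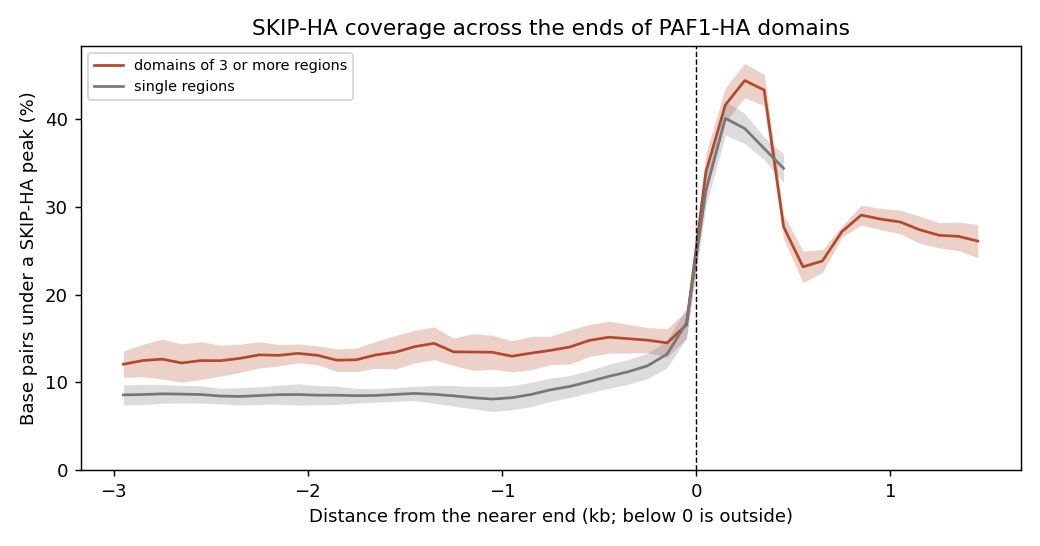
Mean share of base pairs under a SKIP-HA peak (y axis, %) by distance from the nearer end of a PAF1-HA domain (red) or single region (grey) in 100 bp bins; both ends are pooled, bands are ± SD over the 3 SKIP-HA libraries, and bins inside an interval stop at its midpoint. Coverage climbs at the domain end, peaks 200 to 300 bp inside at 44.4%, drops to 23.2% at 500 to 600 bp and returns to 29.1% at 800 to 900 bp. From 200 bp inward the grey curve rests on the wider single regions only. Its bins hold 1376 kb at 0 to 100 bp, 931 kb at 200 to 300 bp and 169 kb at 400 to 500 bp. Domain bins keep 163 kb up to 500 to 600 bp, so the curves do not compare like with like there.

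Edges of the domains were covered by SKIP-HA more than the interior. The outer 25% at each end had a coverage of 31.0%, 32.4% and 34.2% in SKIP-HA replicates 1, 2 and 3, and the inner 50% had 25.4%, 27.6% and 27.6%. The difference was 5.66 points ± 0.858 (SD, n = 3, exact sign-flip p = 0.25), and 5.22 points in SKIP-HA replicates 1 and 2. Without PAF1-HA replicate 1 it was 10.03 points. The rule itself places a PAF1-HA region at each end. Regions filled 79.7% of the outer parts and 59.9% of the inner part. Counting only base pairs inside regions, the coverage was 37.0% ± 1.98 at the edges and 34.5% ± 1.16 in the interior, a difference of 2.5 points ± 1.56 (SD, n = 3, exact sign-flip p = 0.25). Counting only base pairs inside gaps it was 15.1% ± 0.873 and 15.5% ± 1.51, with a difference of -0.41 points ± 1.52 (exact sign-flip p = 1).

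Terminal regions differed little from inner regions. SKIP-HA covered 34.7%, 36.2% and 38.9% of terminal regions and 34.0%, 35.9% and 35.4% of inner regions in replicates 1, 2 and 3. The difference of 1.52 points ± 1.73, higher at terminal regions in 3 of 3 libraries, was smaller than its own spread (SD, n = 3, exact sign-flip p = 0.25) and came mostly from replicate 3, without which it was 0.53 points. It turned round when regions were required in 3 of 3 PAF1-HA libraries, where terminal regions had 48.4%, 50.7% and 48.5% and inner regions 55.5%, 56.1% and 55.0%, a difference of -6.31 points ± 0.867 (SD, n = 3, exact sign-flip p = 0.25). It was also below 0, at -6.22 points, with replicates 1 and 2 of both lines only. SKIP-HA in domains of 3 regions was 37.1% ± 1.94 at terminal and 35.5% ± 1.45 at middle regions, and in domains of 4 regions 35.9% ± 3.73 and 36.4% ± 2.76 (SD, n = 3).

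Domains differed among themselves in how many of their regions SKIP-HA met. In 242 domains, or 29.7%, every region was overlapped in at least 2 SKIP-HA libraries, in 506 some regions were, and in 67 none was. Counted by region, the share was 65.5% of terminal and 62.0% of inner regions, close to the 65.5% of all consensus regions. Whether the counts of domains differ from what such shares alone would give was not tested. Both terminal regions were overlapped in 368 domains, 1 of them in 331 and neither in 116, of which 49 had an inner region that was. Among the 493 domains of 3 regions, 181 had all regions overlapped and 49 none. The middle region alone was overlapped in 27 and both terminal regions without the middle one in 45. In 81 a single terminal region was overlapped and in 110 the middle region and 1 terminal region.

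Mean SKIP-HA coverage per domain had a median of 29.9% and quartiles of 21.3% and 40.2%. The highest value, 82.6% ± 11.9 (SD, n = 3 libraries), was on chromosome 6 at 7768442 to 7770172, where 3 regions with gaps of 28 and 9 bp held 4 PAF1-HA peaks in each library and 4, 4 and 3 SKIP-HA peaks. The domain on chromosome 2 at 252651 to 254188 held 3 PAF1-HA and 3 SKIP-HA peaks in every library, and SKIP-HA covered 78.0% of it in each. All 6 lists thus had 1 peak in each of the same 3 regions. On chromosome 12, at 8215710 to 8218095, the coverage was 75.9% ± 11.7, and on chromosome 3, at 454827 to 456317, it was 72.5% ± 13.8. The spread was smallest among the others on chromosome 17, at 2540661 to 2542320, with 72.0% ± 0.436 (SD, n = 3 libraries). All 5 were short domains of 3 regions, between 1491 and 2386 bp long. Coverage was taken over the whole length with its gaps, which favours domains with little gap. Regions filled 75.2% to 97.9% of these 5, against a median of 70.6% over all domains.

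No SKIP-HA peak of any library lay in 10 domains, or 1.23%. Counted by region, 11.9% of domain regions and 10.1% of single regions had none, so regions without SKIP-HA were about as frequent in both. The longest of the 10 domains, on chromosome 14 at 1005376 to 1011125, was 5750 bp long with 4 regions, 3 of them with a peak in all 3 PAF1-HA libraries. The PAF1-HA libraries had 5, 6 and 9 peaks in it. Its first region, of 3009 bp, was the widest region in any domain. The other named ones rested on fewer recurrent regions. The domain on chromosome 2 at 6531068 to 6535392 had 1, 4 and 5 PAF1-HA peaks and 0 of 4 regions in all libraries, and that on chromosome 17 at 3443111 to 3446766 had 7, 2 and 3 peaks and 0 of 5 regions. On chromosome 9, at 2961306 to 2964723, 1 of 4 regions had a peak in 3 libraries. The same held for 1 of 3 regions on chromosome 10, at 456267 to 459677.

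Domains built from SKIP-HA peaks by the same rule numbered 1165, with a median length of 3134 bp. Of the 815 PAF1-HA domains, 373 overlapped a SKIP-HA domain, or 45.8%, and 376 SKIP-HA domains overlapped a PAF1-HA domain, or 32.3%. Over all 9250 stitched units the share that overlapped a SKIP-HA domain was 14.1%, with 22.7% of 2-region stretches and 8.46% of single regions. These units differ in length, and a longer one is met more often by its length alone. In the 380 overlapping pairs the SKIP-HA domain passed 1 end of the PAF1-HA domain in 236 pairs and both ends in 87, and it lay inside it in 57. Matching ends lay a median of 735.5 bp apart.

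Domains occurred on all 17 chromosomes, at 3.13 to 11.7 per Mb. Chromosome 14 had the highest density, with 49 domains, and also the most consensus regions per Mb, at 142. Chromosome 11 had the lowest, with 14 domains, although its 105 regions per Mb were not the fewest. Of its 471 regions, 51 lay in domains, or 10.8%. On chromosome 15 this share was highest, with 167 of 499 regions, or 33.5%, at the lowest density of regions, 85.7 per Mb. Stitching each library alone, regions in stretches of 3 or more made up 19.8%, 22.6% and 22.0% on chromosome 11 in replicates 1, 2 and 3, and 31.5%, 30.1% and 30.6% on chromosome 15. Chromosome 11 had the lowest share in replicates 1 and 3 and chromosome 2, with 20.2%, in replicate 2. By the mean of the single libraries chromosome 4 came first, at 33.6% ± 1.49 (SD, n = 3).

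**Figure D5:**
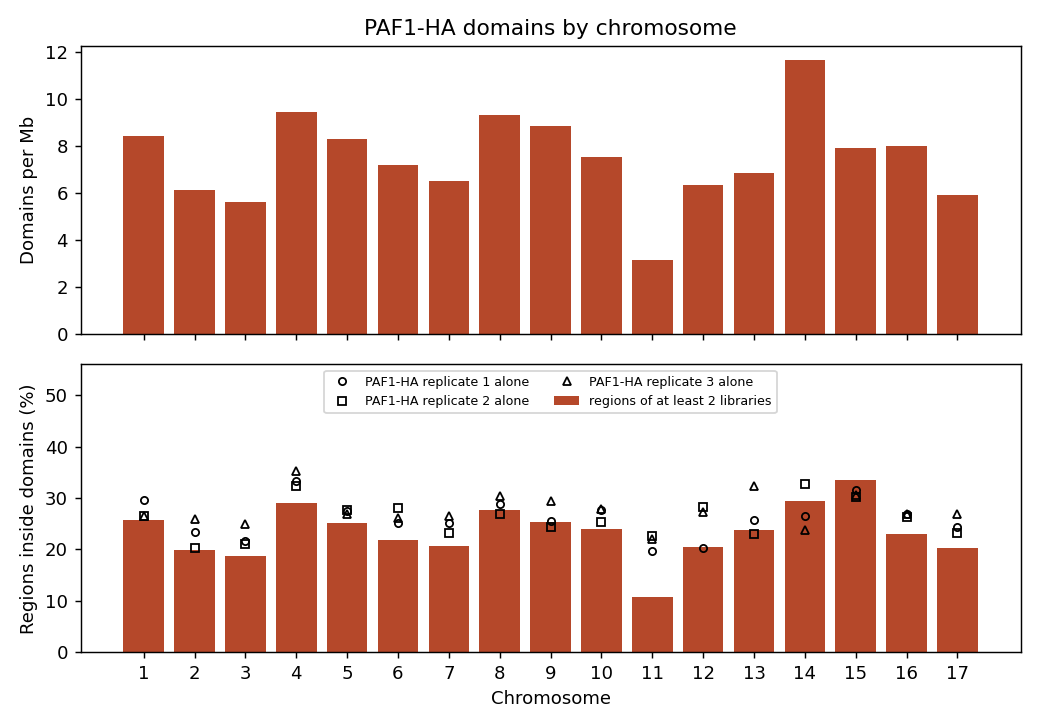
PAF1-HA domains per Mb of chromosome (top) and share of consensus regions that lie in domains (bottom, bars); symbols give the same share when each PAF1-HA library is stitched alone. In the bars, chromosome 11 is low and chromosome 14 is high in both panels, while chromosome 15 is high in the bottom panel only. The symbols of chromosome 11 lie closer to those of other chromosomes.

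On chromosome 11 the domain regions leaned on replicate 2, which had a peak in 98.0% of them, against 72.5% for replicate 1 and 80.4% for replicate 3. SKIP-HA coverage of domain regions ranged from 32.1% ± 2.16 on chromosome 12 to 43.3% ± 1.42 on chromosome 15 and was 42.0% ± 2.95 on chromosome 11 (SD, n = 3 libraries), with no test between chromosomes. Median domain length varied less, from 2732 bp on chromosome 4 to 3358.5 bp on chromosome 7.

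Neighbouring domains were a median of 77.9 kb apart, but 150 of them, or 18.4%, had another domain within 5 kb, and the closest pair was 1004 bp apart. Within 50 kb of a chromosome end lay 15 domains on 9 chromosomes, or 1.84% of domains. This stretch held 1.53% of all consensus regions and 1.52% of the length, so the share of domains at the ends was close to these.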

How the data were processed

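Chromatin precipitated with an anti-HA antibody was sequenced from 3 PAF1-HA, 3 SKIP-HA and 3 wild-type libraries. The deposited files are peak intervals, 1 list per library, for the 3 PAF1-HA and 3 SKIP-HA libraries, with sequence name, start and end and no score. Per the submitters' processing notes, every sample lists Bowtie2 and HOMER, and 4 samples, replicates 1 and 2 of the tagged lines, also list MACS3. The role of each tool, its version and threshold and the genome build: not given in the sources used here. If replicate 3 was called differently, list lengths could differ for that reason. Starts were read as BED positions, counted from 0, and printed with 1 added. The smallest start in every list is 1, so starts may count from 1 and printed starts may be 1 bp too high. Read depth is unknown, so no counting interval is given.

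Peaks were merged, stitched and measured with scipy 1.17.1, pandas 2.3.3 and numpy 2.4.6 under Python 3.11.15, and drawn with matplotlib 3.10.9. The code was tested on simulated lists with known domains. Coverage is the percentage of base pairs under at least 1 peak of a library. Differences within each SKIP-HA library were tested over the 3 libraries by a two-sided exact sign-flip permutation test, where p cannot be below 0.25. These p-values were not adjusted, as none can pass 0.05. Domains named are the 10 longest, the 5 with most regions (all among those 10), the 5 with most regions among those recurrent throughout, the 5 longest without SKIP-HA peaks and the 5 with the highest SKIP-HA coverage, and the chromosomes with most and fewest domains per Mb. Other chromosomes and the classes by recurrence were chosen after their values were seen. The domains, the rule and the lists were chosen with earlier results of these data known. Alternatives were other stitching distances, recurrence, region numbers, merging overlaps, edge, flank and coverage measures, and left-out libraries. A gene table of an assembly whose fit to the peaks was not established was not used.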

Additional observations from a re-analysis of the deposited data

Results flagged for a closer look

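Peaks outside the chromosomes take no part in the comparisons above. The same rule gave 6 PAF1-HA domains there, from 66 consensus regions. They are given because they lie outside the main measurement and exceed the 3 that a count of 0 allows, which is not an expected number. Per 100 consensus regions there were 9.09 domains there and 6.28 on the chromosomes, and the difference was not tested. Of these, 3 lay on the plastome, 1 on the mitogenome and 2 on contigs. The plastome domain at 45559 to 55682 had 12 regions over 10124 bp, longer than any chromosomal domain, with 12, 10 and 13 PAF1-HA peaks in its regions and a SKIP-HA coverage of 15.8%, 42.6% and 31.6% in replicates 1, 2 and 3. The mitogenome domain at 470 to 1779 was covered by SKIP-HA over 90.5%, 91.6% and 72.6%. Untagged cells, which would show the background on these sequences, were not analysed here.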

How the results depend on the processing

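Regions against gaps and domains against flanks kept their direction under every alternative run. Edges minus interior (5.66 points) kept it under 15 alternatives, at 2.5 points inside regions only, and turned round to -0.41 points inside gaps only; both of these alternatives were chosen after seeing the data. SKIP-HA coverage of domain regions minus single regions (-0.56 points) turned round to 0.56 points with stitching at 500 bp, 3.27 with merging at 200 bp overlap, 10.8 with peaks in 3 of 3 PAF1-HA libraries and 11.4 with replicates 1 and 2 only; it ran from -0.86 to 10.3 when 1 library was left out. Terminal minus inner regions (1.52 points) turned round to -0.17, -1.0, -6.31 and -6.22 points under the same settings in that order, and ran from -4.38 to 2.11 with 1 library left out. The cause was not tested. The number of domains was 454 with stitching at 500 bp, 1190 at 2000 bp, 698 with merging at 200 bp overlap, 322 with at least 4 regions, 141 with peaks in 3 of 3 libraries, 251 with replicates 1 and 2 only, and 251 to 289 with 1 PAF1-HA library left out, since fewer libraries remain to support a region. Median length was 2391.5 bp with stitching at 500 bp, 4142 bp at 2000 bp, 2350.5 bp with merging at 200 bp, 2788 bp with 3 of 3 libraries, 4181 bp with at least 4 regions, 2564 bp with replicates 1 and 2 only and 2564 to 2713 bp with 1 library left out. Median centre spacing was 804 bp with stitching at 500 bp, 1190 bp at 2000 bp, 750.5 bp with merging at 200 bp, 878 bp with replicates 1 and 2 only and 878 to 916.5 bp with 1 library left out. The held-out difference was 13.2 points with stitching at 500 bp and 14.2 with merging at 200 bp. Domains with SKIP-HA peaks in at least 2 libraries made up 97.8% with stitching at 2000 bp, 98.6% with 3 of 3 libraries, 93.6% with replicates 1 and 2 only and 87.4% to 98.0% with 1 library left out. Each test already sets positions of the same SKIP-HA library against each other. No paired analysis was possible because, across the lines, no test compares samples that share a replicate number.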
